A study of Mus musculus with 18 samples.

Results

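The early transcriptional response of mouse bone marrow-derived macrophages (BMDMs) to bacterial lipopolysaccharide (LPS) was described by comparing 3 LPS-stimulated RNA-Seq libraries with 3 unstimulated ones, chosen by their sample labels from the 18 libraries of the series. BMDMs are macrophages grown from bone marrow progenitors, here from C57BL/6 mice in medium supplemented with L929 cell-conditioned medium, a source of macrophage colony-stimulating factor. The stimulated group received a single dose of LPS at 10 ng/ml, for 3 h according to the treatment scheme of the study, and the other group is labelled as an untreated control. Neither group received carboplatin or an earlier dose of LPS. Another group, given LPS at 100 ng/ml for 24 h (3 libraries), is used below to set early levels beside late ones. All 18 libraries, carboplatin-treated ones among them, were fitted together, so they also entered the expression filter, the scaling and the estimate of spread. The time at which the unstimulated cells were harvested, and whether their medium was changed, are not given in the sources used here, so culture time and handling cannot be told apart from LPS.

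LPS, a component of the outer membrane of Gram-negative bacteria, is handed by the surface protein CD14 to the receptor complex of TLR4 and MD-2. TLR4 then signals through the adaptor MyD88, which leads to NF-κB and MAP kinase activation, and through TRIF, which leads to IRF3 activation and interferon beta. In macrophages the early outcome is known to be a burst of cytokines, chemokines and their own inhibitors, with interferon-stimulated genes following after interferon beta has been made and sensed.

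Between 8288222 and 14708099 reads per library were counted on genes in the 6 libraries, and 11305 genes passed the expression filter. Macrophage markers (15 genes) summed to 281134 to 319460 normalized counts in unstimulated and 262172 to 300522 in LPS-stimulated libraries, where a normalized count is a read count scaled to a common library size. Adgre1, which encodes F4/80, had 10629, 16921 and 13115 normalized counts in unstimulated replicates 1, 2 and 3 and 10958, 15035 and 13074 after LPS. Most markers of other cell types were low: the 10 erythroid and the 11 T and NK cell markers summed to at most 7.3 and 52.5 in any library, and the neutrophil markers Ly6g and Mpo had no reads. The 10 B cell markers summed to 325 to 1589 before and 125 to 286 after LPS, mostly through Ighm, the immunoglobulin heavy chain gene, with 255, 943 and 1542 and 69.2, 211 and 271 normalized counts, while Pax5 had no reads. In bulk samples, fewer cells of a type and less RNA per cell cannot be told apart. The replicate number of the labels entered the fit as a block by design, although the labels and the study state no pairing. Libraries with the same number deviated together from their group means (correlations across genes of 0.44, 0.237 and 0.189), but libraries of unlike number reached 0.261.

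Of the 11305 tested genes, 1381 were differentially expressed genes (DEGs), called at |log2FC| > 2 with an edgeR adjusted p under 0.05. These comprised 742 genes that rose (6.56% of the tested genes) and 639 that fell (5.65%). Without the limit on the fold change, 3331 genes rose (29.5%) and 3817 fell (33.8%), and "rose" and "fell" are used in this sense below. The fitted rises were larger than the fitted falls: 185 of the DEGs that rose had a log2FC over 5, against 26 with a log2FC under -5 among those that fell. However, 122 DEGs that rose and 77 that fell had at most 3 reads in every library of their lower group. The fitted size of these changes depends on the prior count, a small value that the fit adds to the counts. In share of all counts, the DEGs that rose went from 1.92 to 1.97% in unstimulated libraries to 15.7 to 17.8% after LPS, and those that fell went from 2.07 to 2.51% to 0.257 to 0.371%. The balance of the DEGs depended on scaling. With library size alone in place of TMM, which corrects for a shift in composition between libraries, the median log2FC of all tested genes moved from -0.09 to -0.43, and 597 DEGs were higher and 986 lower, so that 37.7% of the DEGs were higher against 53.7% with TMM. In all, 1372 of the 1381 DEGs moved in the same direction in the 3 same-numbered pairs.

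**Figure D1:**
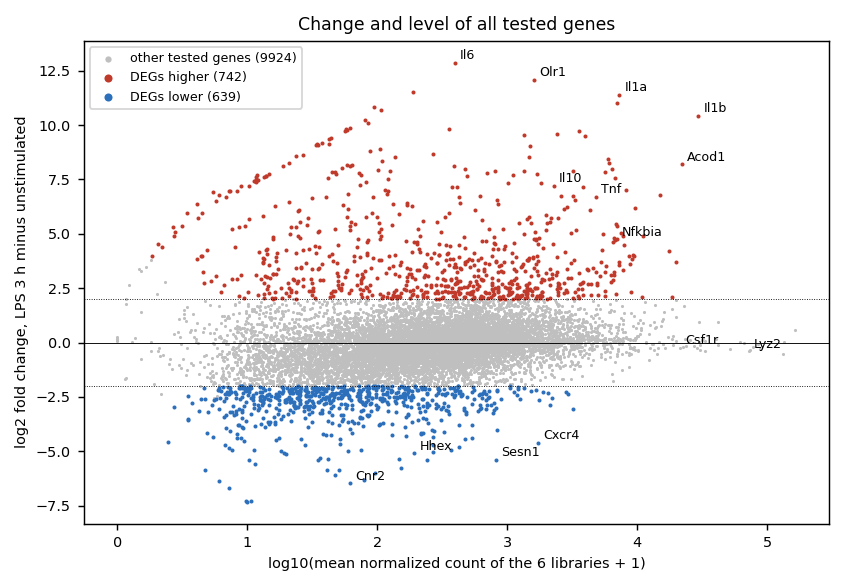
Log2 fold change (LPS for 3 h minus unstimulated, vertical axis) against the mean normalized count of the 6 libraries (log10 axis with 1 added) for the 11305 tested genes. Of the 742 DEGs that rose (red), 185 lie above 5, and of the 639 that fell (blue), 26 lie below -5. The dotted lines mark the limits of 2 and -2, and genes with at most 3 reads in every library of a group are drawn at fitted values that depend on the prior count.

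The promoters of Il6, Olr1 and Shisa3, which had the largest fitted log2FC among DEGs with a mean of at least 100 normalized counts in the higher group, and of Cnr2, which had the largest fitted fall among them, are shown to let the sequences upstream of these genes be read beside their counts. In the low group each of the 4 had at most 3 reads per library, so the order of their fitted values depends on the prior count. Each run is 300 bases, 250 before and 50 after a transcription start, on the strand of the gene, from RefSeq on GRCm38.p6. Capitals mark matches on either strand to 5 short motifs, where N is any base. They are GGANNTTCC for NF-κB, GAAANNGAA for an element like the interferon-stimulated response element (ISRE), TGANTCA for AP-1, TGACGTCA for the cyclic AMP response element (CRE) and TATAAA for a TATA box. The letters of 1 motif do not contain those of another, although matches may overlap.
Il6, chr5:30012864-30013163, + strand: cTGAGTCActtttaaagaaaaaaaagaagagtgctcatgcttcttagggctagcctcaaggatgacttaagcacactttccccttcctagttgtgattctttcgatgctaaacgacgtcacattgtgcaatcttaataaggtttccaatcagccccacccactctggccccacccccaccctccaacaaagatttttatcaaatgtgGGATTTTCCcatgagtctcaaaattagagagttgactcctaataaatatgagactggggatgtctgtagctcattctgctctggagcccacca
Olr1, chr6:129507116-129507415, - strand: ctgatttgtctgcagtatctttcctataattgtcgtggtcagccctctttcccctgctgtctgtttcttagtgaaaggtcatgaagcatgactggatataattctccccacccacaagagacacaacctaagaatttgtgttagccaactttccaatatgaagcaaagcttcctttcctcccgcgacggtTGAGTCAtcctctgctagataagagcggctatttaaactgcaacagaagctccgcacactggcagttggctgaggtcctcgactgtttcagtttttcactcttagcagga
Shisa3, chr5:67607633-67607932, + strand: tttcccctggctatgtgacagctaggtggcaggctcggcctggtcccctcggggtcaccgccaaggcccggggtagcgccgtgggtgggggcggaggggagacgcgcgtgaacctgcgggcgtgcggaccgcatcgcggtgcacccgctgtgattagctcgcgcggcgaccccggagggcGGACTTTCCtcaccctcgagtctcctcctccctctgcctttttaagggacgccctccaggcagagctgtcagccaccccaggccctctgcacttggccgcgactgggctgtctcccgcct
Cnr2, chr4:135894939-135895238, + strand: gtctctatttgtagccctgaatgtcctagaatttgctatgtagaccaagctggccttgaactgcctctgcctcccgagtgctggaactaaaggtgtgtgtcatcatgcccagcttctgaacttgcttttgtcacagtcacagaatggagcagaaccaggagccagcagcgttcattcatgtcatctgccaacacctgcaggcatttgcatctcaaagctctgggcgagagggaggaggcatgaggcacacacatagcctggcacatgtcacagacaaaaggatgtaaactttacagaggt
Cnr2, chr4:135911430-135911729, + strand: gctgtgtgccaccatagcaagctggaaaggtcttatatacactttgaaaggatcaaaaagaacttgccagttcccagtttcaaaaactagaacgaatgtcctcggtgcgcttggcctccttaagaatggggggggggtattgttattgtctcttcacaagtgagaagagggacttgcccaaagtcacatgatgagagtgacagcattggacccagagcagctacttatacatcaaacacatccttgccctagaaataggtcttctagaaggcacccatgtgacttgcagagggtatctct

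The Il6 promoter held an NF-κB match that begins 43 bases and an AP-1 match that begins 249 bases before the start. In Olr1 the AP-1 match begins 60 bases before the start, and in Shisa3 the NF-κB match begins 70 bases before it. Neither Cnr2 promoter held a match, which says only that these letters are not in these windows. Because the promoter table covered 78.2% of the DEGs that rose, the shares over gene groups were counted in windows of the same length around the start of the canonical transcript in GENCODE vM39, read from the GRCm39 genome. The NF-κB letters were found in 57 of 731 windows of DEGs that rose (7.8%), in 21 of 620 of DEGs that fell (3.39%) and in 4.78% of all 11002 windows. AP-1 letters stood in 11.8% of the windows of DEGs that rose, 5.97% of those that fell and 5.52% of all, and TATA letters in 12.2%, 9.68% and 7.84%. For the ISRE-like letters the shares were 9.44%, 7.58% and 8.1%, and for CRE 3.83%, 2.9% and 3.32%. The windows of both groups of DEGs held fewer CG dinucleotides (medians of 13 and 15) than all windows (18), at the same median GC content of 58%. Gene size differed little, with a median span of 25.9 kb in both groups of DEGs and 25.5 kb over all matched genes. These shares are descriptions, without a test.

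Cytokine genes showed the largest rises. Of the 32 genes of the cytokine list, 25 were tested. Of these, 24 rose (96.0%, against 29.5% of all tested genes), 19 as DEGs. None fell, but 10 had at most 3 reads in every unstimulated library. These 10 passed the expression filter only through other groups, so a fall could not have been seen in them. The median log2FC was 7.17 against -0.09 over all tested genes, or 5.21 with these 10 genes set to their lower bounds. Il6, which encodes a cytokine of the acute-phase response, had no read in any unstimulated library and 1444, 428 and 478 normalized counts after LPS, at least 292-fold higher against a floor of 3 counts per library (edgeR adjusted p = 5.2e-08). Replicate 1 was the highest, and without it the bound was 169-fold. Il1b rose from 47.8, 45.1 and 59.1 to 63058, 48828 and 65006 normalized counts. Its log2FC was 10.41 ± 0.75 (log2FC ± SE, edgeR adjusted p = 2e-09), and its gain in counts was among the 5 largest of all genes. Il1a, the other agonist of the interleukin-1 receptor, rose from 10.5, 2.46 and 8.18 to 12702, 15127 and 15829, a log2FC of 11.39 ± 0.64. No stimulated library came near the unstimulated range for these genes.

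Tnf, an early cytokine of the LPS response, rose from 131, 75.4 and 61.8 to 14714, 7858 and 5988 normalized counts, with a log2FC of 6.71 ± 0.29 (edgeR adjusted p = 3.2e-12). Il10, whose product restrains macrophage activation, rose from 28.7, 36.9 and 26.4 to 4409, 5547 and 3620.2, a log2FC of 7.21 ± 0.32 (edgeR adjusted p = 5.3e-12). Both genes were thus far above their unstimulated range in every stimulated library, and Tnf was highest in replicate 1. Il33, an alarmin of the interleukin-1 family, and Csf2, which encodes GM-CSF, had no unstimulated reads. After LPS, Il33 had 90.7, 187 and 282 and Csf2 418, 45.7 and 42.4 normalized counts, at least 69.5-fold and 62.8-fold higher. Csf2 was uneven, with replicate 1 far above the other two, and its bound without that library was 16.4-fold. Il12b, chosen after its values were seen, encodes the shared subunit of IL-12 and IL-23 and reached only 28.6, 13.8 and 12.8 normalized counts from none.

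Among 22 tested chemokines, 19 rose (86.4%, against 29.5% of all tested genes), 17 of them as DEGs, and none fell. The median log2FC was 4.36 (3.53 with 3 genes at their lower bounds, in which a fall could not have been seen). The leading members are known to attract neutrophils. Cxcl1 rose from 9.56, 7.38 and 10.0 to 10586, 5830.3 and 4882 normalized counts, Cxcl2 from 55.4, 37.7 and 28.2 to 16009.6, 10287 and 10104 and Cxcl3 from 10.5, 5.74 and 10.0 to 3151, 2157 and 3594, with log2FC values of 9.71 ± 0.39, 8.25 ± 0.25 and 9.02 ± 0.71. The monocyte attractant Ccl2, chosen after its values were seen, rose from 109.9, 36.1 and 39.1 to 12484, 1427 and 2224, with replicate 1 well above the others. Ccl2 also belonged to a run of 4 neighbouring tested genes on chromosome 11 (81926397 to 82007625, GRCm39), Ccl2, Ccl7, Ccl12 and Ccl8, which were all DEGs that rose.

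Such runs of at least 3 adjacent tested genes called in the same direction numbered 20 among the DEGs that rose, with 66 genes, and 7 among those that fell, with 21 genes. Of the 5 other runs of 4 genes, all among the DEGs that rose, 2 were gene families, the guanylate-binding proteins Gbp5, Gbp7, Gbp3 and Gbp2 on chromosome 3 (142199739 to 142343779) and Ifi211, Ifi203, Ifi202b and Ifi205 on chromosome 1 (173723911 to 173859456). The remaining 3 joined genes of different families: Tha1, Socs3, Pgs1 and Dnah17 on chromosome 11, Slc39a14, Piwil2, Polr3d and Bmp1 on chromosome 14, and Foxp4 with Trem1, Trem3 and Treml4 on chromosome 17. The members of a gene family resemble each other in sequence, and how the counting divided reads between them is not given in the sources used here. Sesn1 and Foxo3 on chromosome 10 were part of a run that fell.

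**Figure D2:**
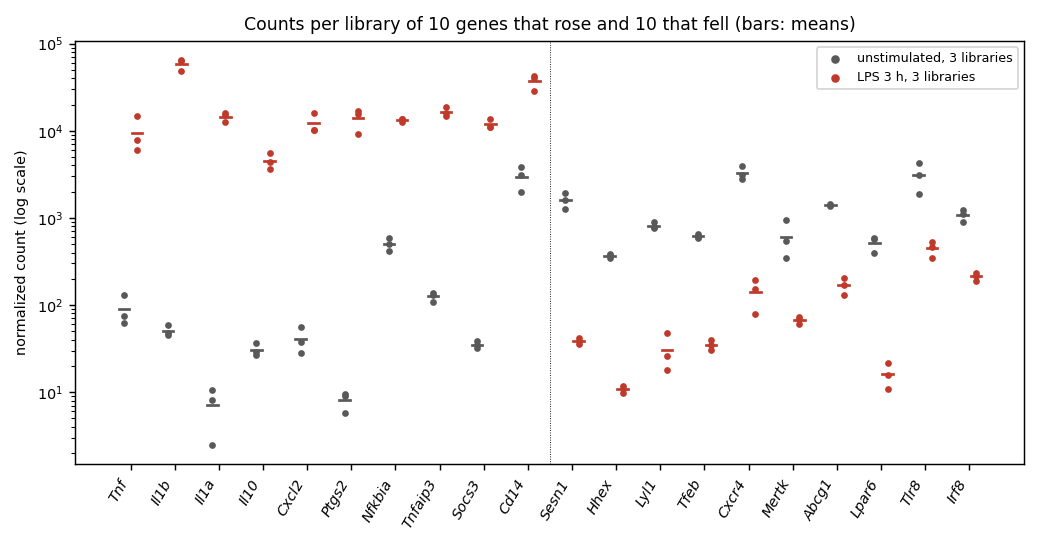
Normalized counts (log axis) of 20 genes in the 3 unstimulated (grey) and the 3 LPS-stimulated (red) libraries, with bars at the means. The 10 genes on the left rose and the 10 on the right fell, and for each of them the ranges of the 2 groups are apart.

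Genes of NF-κB and its inhibitors mostly rose. NF-κB dimers are held in the cytoplasm by IκB proteins, which are themselves NF-κB targets. Of 26 tested genes, 22 rose (84.6%, against 29.5% of all tested genes), 16 as DEGs, and 2 fell (7.69%, against 33.8%). The median log2FC was 2.78. Nfkbia, which encodes IκBα, rose from 591, 498 and 413 to 13641, 12615 and 13809.5 normalized counts (log2FC 4.75 ± 0.14, edgeR adjusted p = 5.3e-14). Tnfaip3, which encodes the ubiquitin-editing enzyme A20, rose from 108, 132 and 138 to 15858, 18541 and 14619 (log2FC 7.02 ± 0.14, edgeR adjusted p = 3.9e-16). The ranges of both groups were narrow and far apart, and the summed count of the list was 9935 to 10329 before and 110859 to 113408 after LPS. The genes that fell were Map3k14, the NF-κB-inducing kinase of the non-canonical pathway, at -1.22 ± 0.19, and Otulin, a deubiquitinase, at -0.54 ± 0.12.

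In the list of feedback regulators, 20 of 28 tested genes rose (71.4%, against 29.5% of all tested genes) and 5 fell (17.9%, against 33.8%). The list held 16 and 2 DEGs, and its median log2FC was 3.08. Most of its members are known inhibitors of signalling, but it also holds Nlrp3, an inflammasome sensor (log2FC 4.25), and Gpr84, a receptor for medium-chain fatty acids known for pro-inflammatory signalling. Socs3, a suppressor of cytokine signalling, rose from 34.4, 32 and 38.2 to 11134, 10991 and 13682 normalized counts, a log2FC of 8.45 ± 0.39. Cish, of the same family, rose from 3.82, 4.10 and 2.73 to 1410.3, 744 and 669, and Gpr84 from 39.2, 27.1 and 17.3 to 5663, 6039 and 7476. A smaller set moved the other way. Sigirr, an inhibitory receptor of the interleukin-1 family, fell from 79.3, 39.3 and 36.4 to 17.9, 4.15 and 3.94 normalized counts (log2FC -2.67 ± 0.55). Dusp6, a phosphatase of ERK, fell from 146, 128 and 72.7 to 17.9, 14.5 and 37.5 (log2FC -2.34 ± 0.36), and Zfp36l2, an RNA-binding protein that destabilises AU-rich mRNA, had a log2FC of -1.94 ± 0.30.

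Immediate-early transcription factors, which need no new protein to be induced, mostly rose. Of 27 tested, 21 rose (77.8%, against 29.5% of all tested genes), 13 as DEGs, and 3 fell (11.1%, against 33.8%). The median log2FC was 1.63. Nr4a3, an orphan nuclear receptor, went from 0.96, 0 and 0 to 135, 69.9 and 73.9 normalized counts, at least 34.6-fold higher. Fosl1 and Maff, both of the basic leucine zipper class, had log2FC values of 7.01 ± 0.58 and 6.28 ± 0.25. The genes that fell were Klf4 at -2.02 ± 0.21, Atf3 at -1.39 ± 0.35 and Jun at -0.78 ± 0.21. Atf3, whose product is known to dampen TLR4 responses, had 1312, 1015 and 1013 normalized counts before and 730.2, 302 and 257 after LPS. Jun was lower in each pair, but stimulated replicate 3 lay close to the unstimulated values (1036, 726 and 703 before and 311, 412 and 692 after).

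Enzymes and secreted effectors of inflammation rose in 27 of 35 tested cases (77.1%, against 29.5% of all tested genes), 23 as DEGs. They fell in 5 (14.3%, against 33.8%), with a median log2FC of 4.67 (4.15 with 2 genes at their bounds). Ptgs2, the inducible cyclooxygenase of prostaglandin synthesis, rose from 9.56, 5.74 and 9.09 to 9280.3, 17083 and 15500.3 normalized counts, a log2FC of 11.03 ± 0.68 (edgeR adjusted p = 2.9e-10). The constitutive isoform Ptgs1 fell from 126, 262 and 215 to 69.2, 72.6 and 80.8 (log2FC -1.44 ± 0.35, edgeR adjusted p = 0.0017). Alox5 and Ltc4s of the leukotriene branch, which the naming rule picked for their falls, had log2FC values of -1.73 ± 0.24 and -0.99 ± 0.34. Alox5ap of the same branch, chosen after its values were seen, fell by less (log2FC -0.495 ± 0.093). Nos2, the inducible nitric oxide synthase, rose from 7.65, 2.46 and 2.73 to 2906, 1831 and 3282 normalized counts. Acod1, which makes itaconate, rose from 285, 64.8 and 123 to 46059, 33611 and 51810.1, a log2FC of 8.20 ± 0.32. Plat, which encodes tissue plasminogen activator and is not in this list, was at least 264-fold higher.

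Other genes with the largest log2FC values lay outside the lists described so far. Olr1, a scavenger receptor for oxidised LDL, went from at most 1 normalized count in each unstimulated library to 2419.7, 4805 and 2334, at least 1187-fold higher. Shisa3 and Gfpt2, an enzyme of hexosamine synthesis, had no reads in unstimulated libraries and 305, 295 and 524 and 278, 166 and 185 normalized counts after LPS. Sele (E-selectin), a member of the adhesion list below, and Plet1 went from no reads to 308, 82.3 and 85.8 and 136, 68.5 and 161 normalized counts. Shisa3 overlaps Atp8a1 on the opposite strand, and the strand setting of the counting is not given in the sources used here. In total, 122 DEGs that rose had at most 3 reads in every unstimulated library, and their fitted log2FC depends on the prior count added to zeros.

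The LPS receptor and TLR adaptor genes did not move in a single direction: 14 of 32 tested genes rose (43.8%, against 29.5% of all tested genes) and 11 fell (34.4%, near the 33.8% of all tested genes), with 3 DEGs in each direction and a median log2FC of 0.19. That median became -0.15 with scaling by library size alone. Tlr4 fell from 935, 881 and 1437 to 555, 493 and 804 normalized counts (log2FC -0.81 ± 0.17, edgeR adjusted p = 0.00046). Its co-receptor Cd14 rose from 3851, 1961 and 3094 to 40070.5, 28437 and 42598 (log2FC 3.71 ± 0.21, edgeR adjusted p = 8.5e-11), with a gain in counts among the 5 largest of all genes. Ly96, which encodes MD-2, rose by less, with a log2FC of 0.78 ± 0.16. The 3 members of the complex thus changed to different degrees, and the ranges of the groups were apart for each.

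Downstream of the receptor, adaptors and kinases of both arms changed in both directions. Myd88 rose from 561, 451 and 524 to 1688, 1871 and 1754 normalized counts (log2FC 1.79 ± 0.11), and Irak2 and Tab2 rose with log2FC values of 1.67 ± 0.12 and 1.89 ± 0.11. Irak1 and Irak4, kinases of the same complex, fell by less (log2FC -0.39 ± 0.10 and -0.47 ± 0.14), and Tab1 had a log2FC of -1.73 ± 0.27. Ticam1, which encodes TRIF, rose (log2FC 0.57 ± 0.15), whereas Ticam2, which encodes the bridging adaptor TRAM and overlaps Tmed7 on the same strand, fell (log2FC -1.31 ± 0.29). Irf3 did not pass the test, at -0.01 ± 0.13 (edgeR adjusted p = 0.95). Ikbke, a kinase of the same branch, was a DEG at 2.32 ± 0.16.

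Among the other Toll-like receptors, 2 of the cell surface rose and 4 of the endosome fell. Tlr2, which senses bacterial lipoproteins, rose from 1222, 1020.4 and 1799 to 18728, 16113 and 14228 normalized counts (log2FC 3.60 ± 0.24), and its partner Tlr1 had a log2FC of 1.08 ± 0.19. The genes that fell encode sensors of nucleic acids. Tlr8 went from 1882, 3081 and 4258 to 529, 468 and 348 (log2FC -2.65 ± 0.24), Tlr9 from 226, 520.5 and 573 to 66.8, 61.6 and 46.3 (log2FC -2.89 ± 0.37) and Tlr13 from 3284, 4493 and 3518 to 937, 583 and 386 (log2FC -2.54 ± 0.26). Tlr7 had a log2FC of -1.67 ± 0.24, and Tlr3, Tlr5 and Tlr6 did not pass the test, with log2FC values of -0.44, -1.24 and -0.29. For Tlr7, Tlr8, Tlr9 and Tlr13 every stimulated library was below every unstimulated one.

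Interferon-stimulated genes, which respond to type I interferon, had a small median change. Of 53 tested genes, 19 rose (35.8%, against 29.5% of all tested genes), 3 fell (5.66%, against 33.8%) and 31 did not pass the test. The list held 7 and 1 DEGs and had a median log2FC of 0.42. Ifnb1, the gene of interferon beta, did not pass the expression filter, with 0 reads in each unstimulated library and 24, 14 and 5 reads after LPS. In the fit without that filter it rose (edgeR adjusted p = 0.0018). The largest rises came from few genes. Ifi205 rose from 95.6, 36.1 and 37.3 to 5671, 8656 and 4775 normalized counts (log2FC 6.75 ± 0.43) and Gbp5, an inducible GTPase, from 108, 42.6 and 76.3 to 5052, 6134 and 5974 (log2FC 6.21 ± 0.39). Isg15, Oasl1, Ifit1 and Rsad2, chosen after their values were seen, rose by less, with log2FC values of 2.09, 2.31, 1.87 and 1.8. For each of them every stimulated library was above every unstimulated one. Irf8, a myeloid transcription factor of the interferon regulatory family, fell from 903, 1118 and 1235 to 235, 214 and 190.3 (log2FC -2.34 ± 0.14, edgeR adjusted p = 1.5e-10), and the nucleotide hydrolase Samhd1 had a log2FC of -1.10 ± 0.20.

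The unstimulated libraries differed among themselves in these genes. For 43 of the 53 genes the first unstimulated replicate was the highest of the 3, while it was the highest for 39.3% of all tested genes. Ifit3, chosen after its values were seen, had 3067, 661 and 1225 normalized counts in unstimulated and 1191, 956 and 574 in LPS-stimulated libraries. Irf7, chosen in the same way, had 4559.7, 1098 and 1179.8 and 3461, 1178 and 995, so that replicate 1 was high in both groups. Within same-numbered pairs, 27, 48 and 32 of the 53 genes were higher after LPS, and the median pair difference was 0.02 in pair 1, 1.47 in pair 2 and 0.32 in pair 3 on the log2 scale. Without the first unstimulated replicate, 32 genes rose and 2 fell, and without replicate 1 of both groups, 31 rose and 4 fell. Without the second unstimulated replicate, 16 rose and 10 fell. Without LPS-stimulated replicate 1, 6 fell, and 6 also fell with library size alone. The ISRE-like letters stood in the windows of 29 of 52 matched genes of this list, against 8.1% of all windows.

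**Figure D3:**
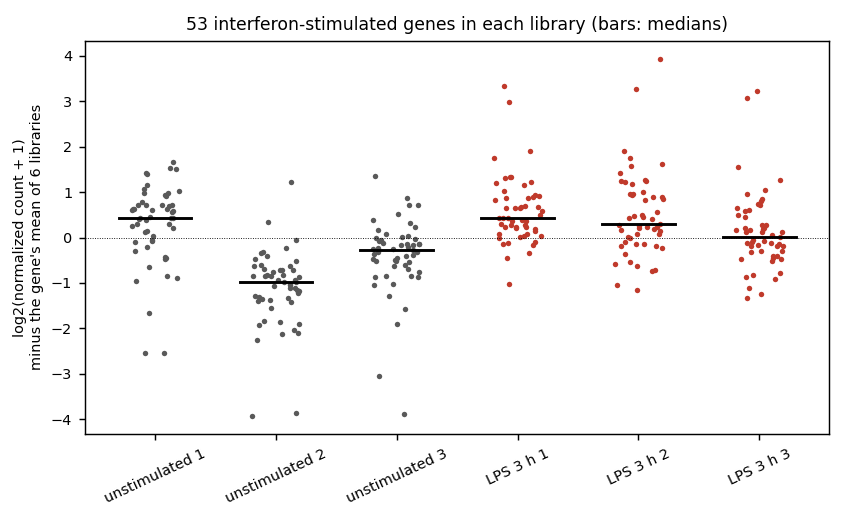
Each point is 1 of the 53 tested interferon-stimulated genes in 1 library, as log2(normalized count + 1) minus the mean of that gene over the 6 libraries, with bars at the medians. The median was 0.43 in unstimulated replicate 1, -0.98 in replicate 2 and -0.27 in replicate 3, and 0.44, 0.30 and 0.02 after LPS, so unstimulated replicate 1 lay at the level of the stimulated libraries.

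Glucose uptake and glycolysis genes rose in 16 of 25 cases (64.0%, against 29.5% of all tested genes) and fell in 4 (16.0%, against 33.8%). The list held 6 DEGs and had a median log2FC of 0.82. The largest rises were in a transporter and regulated enzymes. Slc2a1, the glucose transporter GLUT1, rose from 226, 169.7 and 166 to 2061, 2056 and 3915 normalized counts, Hk2 (hexokinase 2) from 162, 207 and 241 to 1559, 2593 and 3054, and Pfkfb3, which makes an activator of phosphofructokinase, from 84.1, 166 and 101 to 1620.3, 3568 and 4368. Their log2FC values were 3.81 ± 0.20, 3.53 ± 0.18 and 4.73 ± 0.27. Pfkm, a phosphofructokinase isoform, and Pfkfb4 fell (log2FC -1.56 ± 0.25 and -1.37 ± 0.18). Genes of oxidative phosphorylation showed few changes: 4 of 35 rose (11.4%, against 29.5% of all tested genes) and 5 fell (14.3%, against 33.8%). With library size alone, 22 of them fell. The median log2FC was -0.03, with Cycs (cytochrome c) the largest rise at 1.16 ± 0.15.

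Adhesion, migration and costimulation genes rose in 26 of 36 cases (72.2%, against 29.5% of all tested genes) and fell in 6 (16.7%, against 33.8%). The list held 19 and 3 DEGs and had a median log2FC of 2.50. Cd40, a costimulatory receptor, rose from 50.7, 58.2 and 35.5 to 5287, 4533 and 5520.1 normalized counts (log2FC 6.72 ± 0.24). Chemokine receptors known for retention and recruitment of monocytes fell. Cxcr4 fell from 2823, 3923 and 3147 to 192, 154 and 78.9 (log2FC -4.61 ± 0.25) and Ccr2 from 138, 396 and 524 to 41.8, 145 and 61.1 (log2FC -2.07 ± 0.27), and for Ccr2 the ranges overlapped. Rgs2, a regulator of G-protein signalling, fell from 1912, 1159 and 1609.7 to 210.0, 51.9 and 46.3, whereas Rgs16, of the same family, went from no reads to 179, 111 and 42.4.

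Among the DEGs that fell with a mean of at least 100 normalized counts in unstimulated libraries, several of those with the largest falls encode receptors. Cnr2, the cannabinoid receptor of immune cells, fell from 81.2, 143 and 133 to 2.39, 0.69 and 0.99 normalized counts, at least 41.5-fold lower against the floor of 3 counts. Lpar5 and Lpar6, receptors for lysophosphatidic acid, fell from 241, 298 and 316 to 14.3, 2.77 and 5.92 and from 398, 572 and 589.9 to 21.5, 15.9 and 10.8. Gpr160 had a log2FC of -5.00 ± 0.54. In each of these receptors every stimulated library was below every unstimulated one. Lpar6 lies within Rb1 on the opposite strand.

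Sesn1, a p53 and FOXO target that restrains growth signalling, fell from 1267, 1590.0 and 1948 to 35.8, 41.5 and 38.5 normalized counts, a log2FC of -5.38 ± 0.23 (edgeR adjusted p = 2.8e-12). It overlaps Cep57l1 on the opposite strand. Pik3ip1, an inhibitor of PI3 kinase, and Trp53inp1, a p53-induced gene, fell with it, from 36.3, 65.6 and 52.7 to 3.58, 2.08 and 0 and from 38.2, 137 and 118 to 1.19, 6.23 and 4.93. In the whole list of cyclins, CDK inhibitors and growth regulators, 17 of 33 genes fell (51.5%, against 33.8% of all tested genes). A further 9 rose (27.3%, near the 29.5% of all tested genes), and the median log2FC was -0.75. Those that rose included Ddit4, an mTORC1 inhibitor, at 4.88 ± 0.34, and Ccnd2 and Cdk6, a cyclin D and its kinase, at 3.92 ± 0.50 and 3.72 ± 0.26. Members of this list changed in both directions, as did all tested genes.

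Transcription factors of the macrophage lineage fell in 14 of 31 cases (45.2%, against 33.8% of all tested genes) and rose in 10 (32.3%, near the 29.5%). The list held 7 DEGs that fell and 5 that rose and had a median log2FC of -0.48. Hhex, a homeobox factor, fell from 374, 390.1 and 344 to 10.7, 9.69 and 11.8 normalized counts (log2FC -5.10 ± 0.33). Lyl1, a basic helix-loop-helix factor, fell from 886, 771 and 789.8 to 47.7, 18 and 25.6 (log2FC -4.83 ± 0.30), and Tfeb, a regulator of lysosomal genes, from 595, 655 and 599 to 34.6, 40.1 and 30.6 (log2FC -4.12 ± 0.19). In the same list Cebpb, an activator of inflammatory genes, rose from 1572, 1484 and 1221 to 12258, 12473 and 17610.2, with Tfec and Irf4 at 3.28 ± 0.21 and 3.16 ± 0.48. Tfeb and Tfec, which belong to the same family, thus moved in opposite directions. Outside this list, Sox4 fell from 73.6, 183 and 209 to 1.19, 0.69 and 3.94, and Dbp, a clock-controlled factor that overlaps Sphk2 on the opposite strand, from 576, 972 and 578 to 17.9, 22.8 and 28.6.

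Receptors of resident macrophages fell in 16 of 44 cases (36.4%, near the 33.8% of all tested genes) and rose in 10 (22.7%, against 29.5%), with a median log2FC of -0.26. Mertk, a receptor for apoptotic cells, fell from 351, 934 and 544 to 69.2, 72 and 60.1 normalized counts (log2FC -3.10 ± 0.20). Genes that rose included Il4ra, the interleukin-4 receptor, from 959, 1491 and 1011 to 11322, 21489 and 20335, the scavenger receptor Msr1 at 3.39 ± 0.21 and the inhibitory Fc receptor Fcgr2b at 3.14 ± 0.19. Csf1r, the receptor for macrophage colony-stimulating factor, did not pass the test (-0.25 ± 0.11, edgeR adjusted p = 0.054), nor did Adgre1 (-0.05 ± 0.10) or Cd68 (-0.18 ± 0.12). With scaling by library size alone, 28 members of this list fell.

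Among genes of lipid handling, 8 of 23 fell (34.8%, near the 33.8% of all tested genes), 4 as DEGs, and 2 rose (8.7%, against 29.5%). The median log2FC was -0.12, and 16 fell with library size alone. Abcg1, which exports cholesterol, fell from 1360.2, 1417 and 1455 to 204, 131 and 171 normalized counts (log2FC -3.09 ± 0.14), and Abcd2, a peroxisomal transporter, from 117, 236 and 534 to 10.7, 3.46 and 0.99. Scd2, a fatty acid desaturase, had a log2FC of -2.83 ± 0.28. In cholesterol synthesis 12 of 22 genes rose (54.5%, against 29.5% of all tested genes) and 3 fell (13.6%, against 33.8%), with a median log2FC of 0.57. The median pair difference of the list was -0.04, 1.13 and 0.65 in pairs 1, 2 and 3, so it did not rise in pair 1. Without the replicate block, 9 of these genes rose. Hsd17b7, a reductase of the pathway, and Sqle (squalene epoxidase) rose with log2FC values of 2.35 ± 0.28 and 1.61 ± 0.21, while Dhcr7, the enzyme of the last step to cholesterol, fell from 144, 141 and 170.0 to 34.6, 20.8 and 9.86.

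In the TGF-β and BMP list, 17 of 26 genes rose (65.4%, against 29.5% of all tested genes) and 6 fell (23.1%, against 33.8%). The median log2FC was 0.76. Id1, a target of BMP signalling, rose from 12.4, 4.92 and 0.91 to 148, 191 and 251 normalized counts, and the inhibitory SMAD gene Smad6 from 14.3, 34.4 and 12.7 to 124, 269.8 and 330.3. The pseudoreceptor Bambi, at -2.05 ± 0.36, and Tgfbr2, at -1.14 ± 0.14, fell.

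Genes of DNA replication and of mitosis mostly fell or did not pass the test. Of 43 tested S-phase genes, 31 fell (72.1%, against 33.8% of all tested genes), 9 as DEGs, and none rose (against 29.5%), with a median log2FC of -1.13. The summed normalized count of the list was 21646, 16459 and 12008 in unstimulated replicates 1, 2 and 3 and 12634, 8996 and 6383 after LPS, so it was lower in each pair although the ranges overlapped. Gmnn, the inhibitor of replication licensing, fell from 717, 445 and 377 to 99, 56.7 and 50.3 (log2FC -2.91 ± 0.28) and the licensing factor Cdc6 had a log2FC of -2.90 ± 0.58. Without the first unstimulated replicate, 19 S-phase genes fell.

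G2/M-phase genes fell in 31 of 52 cases (59.6%, against 33.8% of all tested genes) and rose in 2 (3.85%, against 29.5%). The median log2FC was -0.62, and there was 1 DEG. That DEG was Psrc1, a microtubule-associated gene, which fell from 231, 189 and 107 to 29.8, 17.3 and 15.8 normalized counts. Ncapd2, a condensin subunit, fell (log2FC -1.80 ± 0.26), while Ckap2l and Rangap1 rose (log2FC 0.58 ± 0.25 and 0.37 ± 0.15) with overlapping ranges. Without the replicate block, 14 of these genes fell and none rose.

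In the list of survival and death genes, which holds members of both kinds, 18 of 31 tested genes rose and 5 fell. The shares were 58.1% (against 29.5% of all tested genes) and 16.1% (against 33.8%). The list held 10 and 2 DEGs and had a median log2FC of 0.54. Cflar, an inhibitor of caspase-8, rose from 64, 186 and 187 to 1948, 4521 and 3408 normalized counts (log2FC 4.55 ± 0.18), and Bcl2a1d, an anti-apoptotic BCL2 relative, from 21, 23.8 and 16.4 to 1754, 1710.3 and 1536. Bcl2a1 copies are nearly identical, so counts of the single copies are uncertain. Bbc3 and Bmf, which encode the pro-apoptotic BH3-only proteins PUMA and BMF, fell (log2FC -2.84 ± 0.32 and -4.45 ± 0.79).

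In raw size of the change, the largest falls were Ftl1, Lyz2, Ctsd, Psap and Grn, with log2FC values between -0.55 and -0.29. The ranges of the groups overlapped for all of these but Psap. Without the replicate block, Lyz2, Ctsd, Psap and Grn did not pass the test (edgeR adjusted p = 0.065, 0.12, 0.095 and 0.16). Fth1, the ferritin heavy chain, rose (log2FC 0.57 ± 0.10), and its partner Ftl1, the light chain, fell (log2FC -0.55 ± 0.10). Both have many near-identical copies in the genome, so their counts are uncertain. Actb rose from 31196, 32226 and 22242 to 59251, 47089 and 59622 normalized counts (log2FC 0.96 ± 0.18). Gapdh rose (log2FC 1.75 ± 0.45), but with only 128, 104 and 154 normalized counts in unstimulated libraries, its value is uncertain, since this gene also has many near-identical copies. Of 35 ribosomal protein genes, 6 rose (17.1%, against 29.5% of all tested genes) and none fell (against 33.8%), at a median log2FC of 0.15. With library size alone none rose and 10 fell (median -0.19).

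**Figure D4:**
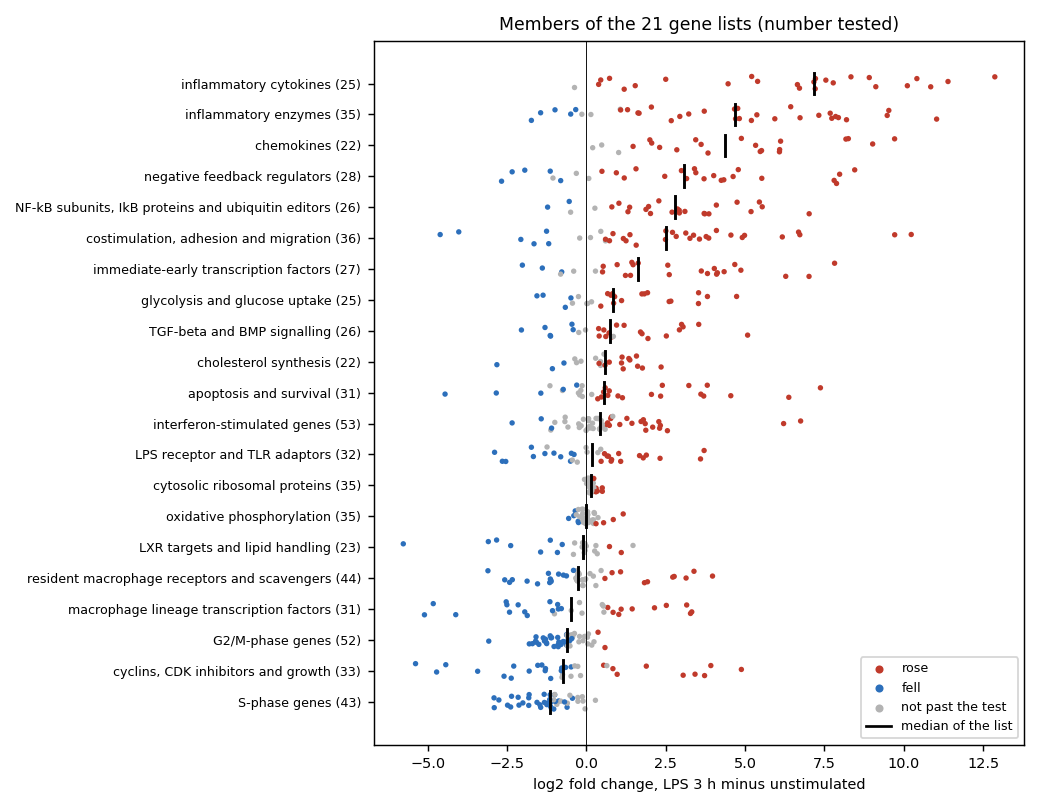
Log2 fold changes (LPS for 3 h minus unstimulated) of the tested members of 21 gene lists, ordered by list median (black bars), with the number tested in brackets. Red points rose, blue points fell and grey points did not pass the test, and the medians run from 7.17 for cytokines to -1.13 for S-phase genes.

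How the early levels stand to later ones was read from the group given LPS at 100 ng/ml for 24 h, with dose and time differing together. Of all tested genes, 28.8% were higher and 28.6% lower at 3 h than at 24 h, and of the 682 tested list genes, 335 were higher and 171 lower. Cytokine genes were higher at 3 h in 21 of 25 cases and lower in 1. Il10 had 4409, 5547 and 3620.2 normalized counts at 3 h and 14.8, 11.4 and 2.81 at 24 h, a difference of 8.92 ± 0.38 on the log2 scale (edgeR adjusted p = 5.5e-12). Tnf had 14714, 7858 and 5988 at 3 h and 285, 353 and 267 at 24 h, a difference of 4.92 ± 0.26 (edgeR adjusted p = 8.3e-11). Il1b differed by less (2.61 ± 0.52), with 24 h levels of 24418, 2439 and 19223 that varied widely between replicates.

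Not all early rises were higher at 3 h than at 24 h. Slc2a1 and Pfkfb3 had differences of 0.01 ± 0.18 and 0.03 ± 0.22, and Nos2 of 0.34 ± 0.27, none of which passed the test (edgeR adjusted p = 0.96, 0.91 and 0.29). These 2 glucose genes do not stand for their list. In it, 18 of 25 genes were lower at 3 h than at 24 h (against 28.6% of all tested genes) and 2 were higher (against 28.8%). Some genes that fell at 3 h stood higher at 24 h. Lpar6 had 21.5, 15.9 and 10.8 normalized counts at 3 h and 509, 368 and 392 at 24 h, and Irf8 235, 214 and 190.3 and 964, 939 and 939. The G2/M-phase genes showed the opposite order, with 48 of 52 higher at 3 h than at 24 h, and Itgam, the gene of CD11b, which did not pass the test at 3 h (log2FC 0.02 ± 0.13), had 23999, 30057 and 27006 normalized counts at 24 h against 3839.5, 5606 and 5405 at 3 h.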

How the data were processed

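The labels give 6 groups of 3 RNA-Seq libraries. The authors prepared stranded poly(A) libraries, aligned the reads with HISAT2 (GRCm39) and ran HTSeq-count, and the deposited values are raw counts for each gene. The annotation, program versions and strand setting are not given in the sources used here, and no reads were realigned. Lines that name no gene were left out (no-feature reads were 29.8 to 33.1% in the 6 libraries compared). All 18 libraries (6869667 to 14708099 counts on genes) were fitted in 1 model of group and replicate number with edgeR 4.0.16 (R 4.3.3), TMM scaling, the filter of filterByExpr (minimum count 10, minimum total count 15), the quasi-likelihood F test and Benjamini-Hochberg adjustment over 11305 genes. The prior count was 0.125, the SE was taken as |log2FC| over the root of the F statistic, and a normalized count is scaled to a library of 9307681. Normalized counts in the text are given for replicates 1, 2 and 3 in that order. Precision is limited by depth at low counts, so for genes with at most 3 counts in every library of a group the fitted log2FC depends on the prior count, and the text gives lower bounds of the fold change for those it describes in full.

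Pairing the libraries by label number is an assumption, as the labels only number the replicates. Same-numbered deviations correlated in all 3 pairs. Stimulated replicate 2, however, correlated slightly more with unstimulated replicate 3 (0.261) than with its own number (0.237), so the correlations do not establish the pairing. The study calls its samples biological replicates. Whether each came from a separate animal is not stated, so p-values measure the spread between these libraries.

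The comparison, the gene lists and the tests were chosen with earlier results of these data known. Lists are described by counts and medians, without a test. Genes were named by rule: the 12 DEGs with the largest rises and the 12 with the largest falls that had a mean of at least 100 normalized counts in the higher group and the same direction in 3 pairs, the 5 largest rises and falls in counts, the 3 leading genes of each list in each direction, the LPS receptor list and a few fixed genes (Tnf, Il6, Il1b, Il10, Ifnb1, Nfkbia, Tlr4, Cd14, Csf1r, Actb, Gapdh, Adgre1, Cd68 and Lyz2). Some genes that the rule picks are not reported here. Other named genes were chosen after their values were seen, including the neighbours in the runs, the markers and the overlapping genes. Alternatives were no block, the 6 libraries alone, RLE or library size alone, other filters, DESeq2 1.42.0, limma-voom (limma 3.58.1), a prior count of 2, other limits and leaving out libraries. The script was tested on simulated data, with counts drawn at the real depth. Positions are from GENCODE vM39, matched by symbol for 97.3% of tested genes.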

Additional observations from a re-analysis of the deposited data

How the results depend on the processing

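The counts of DEGs and of genes past the test stayed within 1.5 times their values under most alternatives. Exceptions were the limit |log2FC| > 1, with 3744 DEGs (1700 higher and 2044 lower), scaling by library size alone, with 986 DEGs lower, and the 6 libraries alone without a replicate block, with 2400 genes that fell. In the fit of 18 libraries with no replicate block, 1352 DEGs were called (726 higher, 626 lower), of which 1338 were shared with the blocked fit, and 2749 genes rose and 3040 fell. Leaving out 1 library at a time gave 1370 to 1629 DEGs, 751 to 819 higher and 589 to 827 lower, with 3096 to 3345 genes that rose and 3251 to 3765 that fell. Without replicate 1 of both groups, an alternative added after the data were seen, 802 DEGs were higher and 767 lower. DESeq2 called 749 and 618 DEGs and limma-voom 746 and 656. The median log2FC of the LPS receptor list (-0.15) and of the ribosomal list (-0.19) reversed with library size alone, whose construction leaves the shift of all genes in the values. Other list medians moved by more than the SD of the 3 pair medians without changing direction, most often those of the cytokines and of the cyclins and growth regulators (9 of 17 alternatives each), the chemokines (6), and the survival and feedback lists (5 each). None of the named genes that passed the test changed sign under any alternative, and 113 of 2873 recomputed log2FC values no longer passed (20 newly passed). Depth limits low genes: with at most 3 counts in every library of a group, the fitted log2FC depends on the prior count.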

Other observations

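Few markers of other cell types passed the expression filter, and some of those moved with LPS. All 3 tested B cell markers fell, Ighm (log2FC -2.20), Cd79b (-2.27) and Cd22 (-0.97), but only 1 fell without the replicate block. Cd79b had few reads (11, 8 and 17 before and 2, 6 and 0 after LPS). For Cd22 the ranges overlapped (56.4, 70.5 and 28.2 against 53.7, 15.9 and 14.8 normalized counts). S100a8, a neutrophil and macrophage gene, rose from 12.4, 11.5 and 6.36 to 110, 38.1 and 116 normalized counts, while the neutrophil markers Ly6g, Mpo, Prtn3 and Retnlg had no reads. Pdgfrb, listed as a stromal marker, rose from 1.91, 0.82 and 2.73 to 20.3, 20.8 and 26.6, and Dcn, another of the 3 tested stromal markers, from 0, 0 and 0.91 to 0, 6.92 and 12.8 (log2FC 3.98 ± 1.06), while Col3a1, Lum and Postn had no reads. Lck of the T and NK cell list (log2FC 2.53) and Siglecf of the mast cell, basophil and eosinophil list (log2FC 3.39) also rose. Of the osteoclast markers, Acp5 rose from 127, 41.8 and 54.5 to 802, 759 and 1155 normalized counts, Ocstamp from 1.91, 0.82 and 0 to 27.4, 20.1 and 37.5, while Ctsk, Atp6v0d2 and Nfatc1 fell (log2FC -0.73, -1.10 and -0.93). These genes were chosen after their values were seen, and the part of other cells in the results was not tested.

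Saa3 and Clec4e, list members outside the naming rule that were chosen after their values were seen, stood differently to the 24 h group. Saa3, an acute-phase gene, had 11996, 10996 and 17547 normalized counts at 3 h against 1237, 730 and 1110 in unstimulated cells, and stood lower at 3 h than after 24 h of the higher dose (log2 difference -5.13, edgeR adjusted p = 3.1e-13). Clec4e, the receptor Mincle, rose to 16838, 19136 and 21089 from 377, 183 and 225, and its difference from 24 h was 0.20 (edgeR adjusted p = 0.41).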
